A study of Mus musculus with 4 samples.

Results

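The DNA replication genes described here are a list of 43 genes whose products license replication origins, unwind DNA, copy it, join the copied pieces and supply its nucleotides. A gene was included when a non-control probe of the arrays carried its listed name or its current symbol. This found 39 of the 43 genes, on 58 of 41174 probes, among 27702 gene names on the arrays. The other 4 genes (Cdt1, Gins1, Gins2 and Rfc1) had probes only under older names and are given apart from the 39.

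The material was total RNA from neurospheres, which are floating colonies grown from neural stem cells. They came from the Dll1 mutant lines Dll1-3 and Dll1-5 and from wild-type controls, all from 129/Sv mice crossed with C57BL/6 and all kept in serum-free medium with EGF. Dll1 encodes a ligand of the Notch receptors, and the question was how mutant cells differ from wild-type cells. The labels give neither the Dll1 allele nor the age of the animals, and each line stands for RNA pooled from 3 preparations. Each of the 4 two-colour arrays held mutant and wild-type RNA of 1 line: mutant RNA was in Cy5 on replicate 1 and in Cy3 on replicate 2, so the replicates of a line are a dye swap and were counted as 1 sample (n = 2 lines). Whether both lines were set against the same wild-type pool is not settled by the labels.

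Depending on array and channel, 80.2% to 82.2% of probes gave a signal well above background. Dll1 itself, the check on the labels, had log2 ratios of mutant over wild type of -3.31 and -3.22 in Dll1-3 and -1.65 and -1.64 in Dll1-5 (mean -2.46 ± 1.15, SD, n = 2 lines; limma adjusted p = 0.123). It was below 0 on all 4 arrays and lower in Dll1-3 than in Dll1-5. The probe's position relative to the mutation is not given in the labels, so it checks the direction only.

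As background, a eukaryotic cell marks its origins in G1 by loading the ring-shaped MCM helicase with the origin recognition complex, Cdc6 and Cdt1, while geminin holds Cdt1 back outside that window. In S phase the Dbf4-dependent kinase Cdc7, Mcm10, Cdc45 and the GINS complex turn the helicase on, primase and polymerase alpha start each strand, and polymerases delta and epsilon extend them on the sliding clamp PCNA. Many of these genes are transcribed at the entry into S phase through E2F transcription factors, and their RNA is abundant in dividing neural progenitors and scarce in cells that have left the cycle. In bulk RNA such as this, fewer cells of a type and less RNA per cell cannot be told apart.

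Promoters are shown first because the genes were, with few exceptions, higher in mutant RNA together, and E2F-type words are a known feature of their promoters. RefSeq promoters (build GRCm38.p6, 250 bases before to 50 bases after the annotated start) were held for 34 of the 39 genes. The search covered TTTCCCGC, TTTGGCGC, TTTCGCGC and TTTGCCGC on either strand, counting overlapping matches. Among the 10 genes with the highest mean ratio, Mcm3 and Pold1 were the ones with such a word, and Tyms and Dbf4 were the highest without one. Each is written 5′ to 3′ on the gene's strand, with the words, in either orientation, in capitals.
Mcm3, a subunit of the MCM helicase, chr1:20820263-20820562, minus strand: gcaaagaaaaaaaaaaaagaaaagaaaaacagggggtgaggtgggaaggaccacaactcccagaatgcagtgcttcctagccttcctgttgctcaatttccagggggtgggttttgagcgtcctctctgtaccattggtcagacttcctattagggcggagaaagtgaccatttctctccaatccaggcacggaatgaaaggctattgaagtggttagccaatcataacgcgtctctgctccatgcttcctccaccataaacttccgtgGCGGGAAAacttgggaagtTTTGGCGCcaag
Pold1, the catalytic subunit of polymerase delta, chr7:44548766-44549065, minus strand: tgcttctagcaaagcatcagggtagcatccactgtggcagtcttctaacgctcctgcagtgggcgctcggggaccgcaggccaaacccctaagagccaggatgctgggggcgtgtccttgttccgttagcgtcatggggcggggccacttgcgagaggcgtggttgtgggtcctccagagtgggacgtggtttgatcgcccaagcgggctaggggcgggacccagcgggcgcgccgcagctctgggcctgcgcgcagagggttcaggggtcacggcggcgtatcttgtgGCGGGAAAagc
Tyms, thymidylate synthase, chr5:30073576-30073875, minus strand: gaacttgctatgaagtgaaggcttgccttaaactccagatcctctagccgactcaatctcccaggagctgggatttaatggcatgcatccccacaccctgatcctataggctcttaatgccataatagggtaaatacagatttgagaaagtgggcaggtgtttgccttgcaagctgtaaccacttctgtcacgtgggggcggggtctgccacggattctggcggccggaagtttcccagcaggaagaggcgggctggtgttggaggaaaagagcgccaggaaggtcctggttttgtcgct
Dbf4, the activating subunit of the Cdc7 kinase, chr5:8422667-8422966, minus strand: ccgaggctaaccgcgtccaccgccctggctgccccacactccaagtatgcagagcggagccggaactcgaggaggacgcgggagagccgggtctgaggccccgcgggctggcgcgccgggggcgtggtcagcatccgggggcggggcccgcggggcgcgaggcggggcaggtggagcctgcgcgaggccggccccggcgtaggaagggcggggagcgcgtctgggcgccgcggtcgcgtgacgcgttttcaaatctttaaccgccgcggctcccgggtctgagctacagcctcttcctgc

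In Mcm3 both words lay after the annotated start, with first bases at 20 and 39, and in Pold1 the single word began at 40. An E2F-type word was found in a promoter of 12 of the 34 genes (35.3%), against 2.6% of all 27025 genes with a RefSeq promoter (2.26% of all 32851 promoters). The holders were Mcm3, Pold1, Uhrf1, Cdc6, Mcm6, Mcm7, Rfc3, Mcm5, Pole2, Pola1, Orc1l and Lig1. In Mcm6 and in Mcm5 a pair of these words overlapped, starting at -110 and -106 in Mcm6 and at -153 and -149 in Mcm5. Counted the same way by gene, the CCAAT box (CCAAT) was held by 58.8% of the 34 genes and 41.06% of all genes, the E-box CACGTG by 14.7% and 8.09%, and the CHR word TTTGAA by 17.6% and 20.23%. By promoter, the shares over all were 37.41%, 7.15% and 17.89%. The 41 RefSeq promoters of these genes had a median GC content of 61.3%, against 52.7% over all promoters, and the shares above are not adjusted for it.

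Genes with and without a word had much the same ratios. The 12 genes with an E2F-type word had mean log2 ratios of 0.60 to 1.77 (median 1.16), and the 22 without had 0.17 to 1.73 (median 1.17). Lig1, which holds a word, and Rpa1, which does not, were both near the bottom of the list.

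**Figure D1:**
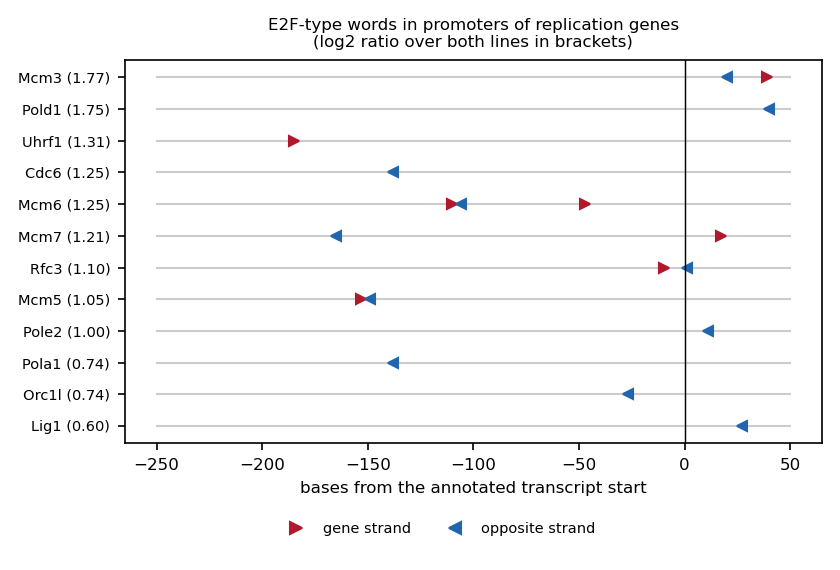
Positions of E2F-type words in the 12 promoters that hold one, in bases from the annotated transcript start, with the gene's mean log2 ratio of mutant over wild type in brackets. Red triangles mark words on the gene's strand and blue triangles words on the opposite strand, and the grey lines span the 300 bases searched. Words lay on both sides of the start, and genes with words ran from 0.60 (Lig1) to 1.77 (Mcm3).

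Nearly all of the replication genes were at a higher RNA level in mutant than in wild-type neurospheres of both lines on these arrays, although no single gene passed the adjusted test given further on. The median log2 ratio over both lines was 1.15, a 2.21-fold higher level in mutant RNA, with values from 0.17 (Rpa1) to 1.77 (Mcm3), where the median of all genes was 0.01. All 39 genes used here were well above background in both channels on all 4 arrays, and none was saturated. The number above 0 on all 4 arrays was 38 of 39, against 24.0% of the 23239 genes with values on every array. None was below 0 on all 4, against 26.1% of all genes. The exception was Rfc2, whose Dll1-5 values lay on both sides of 0. The list was chosen with earlier results of these data known, so its shares against all genes, here and below, are descriptive only.

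By size, none of the 39 genes was at least 2-fold lower in mutant RNA on all 4 arrays, against 2.73% of all genes. At the other end, 9 of the 39 genes (23.1%) were at least 2-fold higher in mutant RNA on all 4 arrays, against 1.67% of all genes. These were Mcm3, Pold1, Dbf4, Ung, Mcm10, Dut, Rfc4, Uhrf1 and Pole. A threshold of 1.5-fold took in 30 of the 39 (76.9%, against 4.91% of all genes), and none was 3-fold higher on all 4 arrays (against 0.383% of all genes). Within all genes, 36 of the 39 stood above the 90th percentile of the mean ratio, 31 above the 95th and 7 above the 99th. The 2-fold count was 15 without the Dll1-5 replicate 2 array, against 1.97% of all genes, and 1 with median centring in place of loess, against 0.516% of all genes.

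No gene on the arrays, and so none of the 39, passed limma's test of both lines against 0 with Benjamini-Hochberg adjustment at 0.05 (0% of 23351 genes), the smallest adjusted p being 0.0745 with 1 residual degree of freedom. At an unadjusted p under 0.05, 37 of the 39 were higher in mutant RNA, against 11.9% of all genes, and 0 were lower, against 15.5%. With a normexp offset of 10, 989 genes (4.24% of all tested) passed the adjusted threshold and 5 of the 39 were among them. Without the Dll1-3 replicate 1 array 1634 genes (7.01%) passed, 15 of the 39 among them. Without the Dll1-5 replicate 2 array 1655 (7.1%) passed, 18 of the 39 among them. With an array left out, the dye effect no longer cancels in that line.

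**Figure D2:**
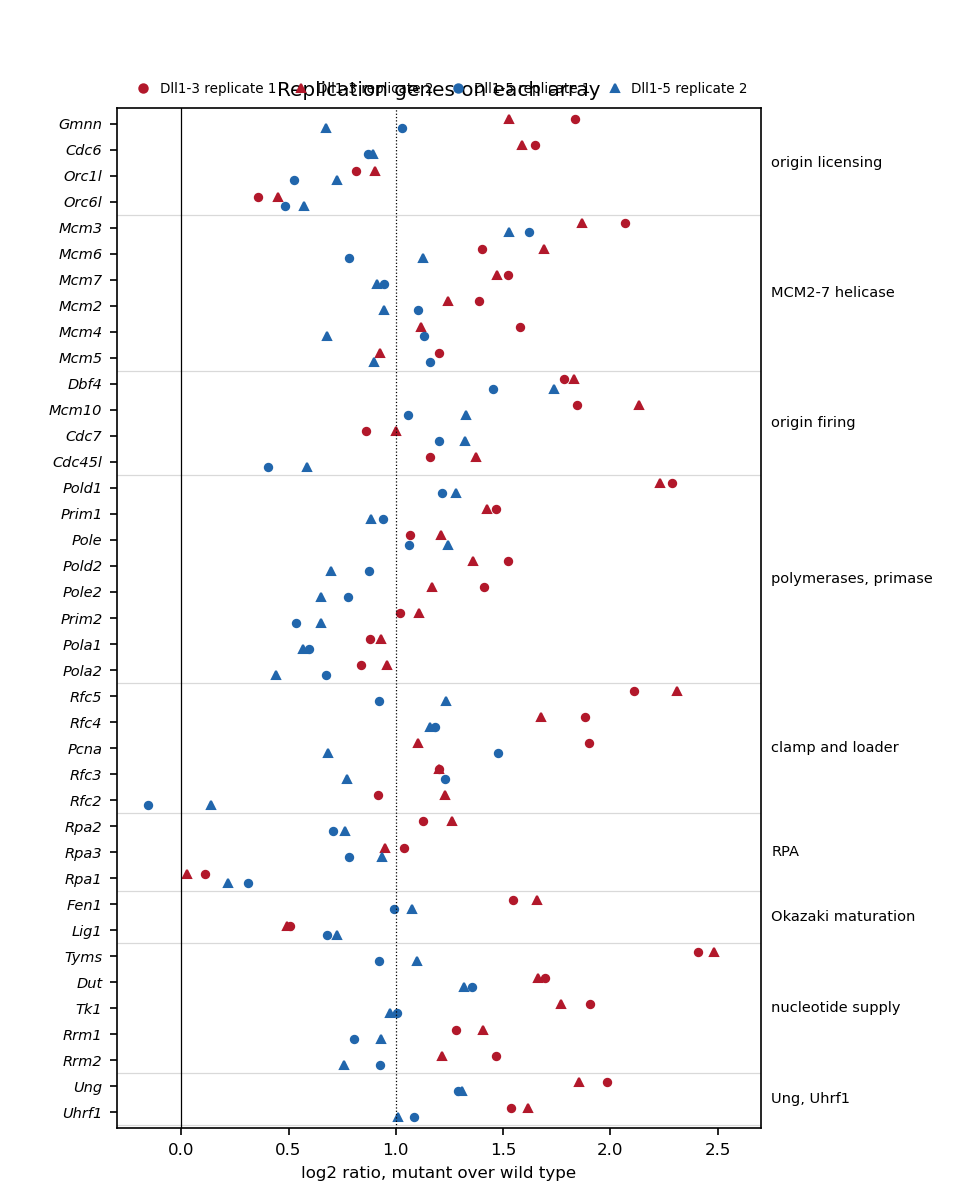
Log2 ratio of mutant over wild type for each of the 39 genes on each array, grouped by role. Red symbols are Dll1-3, blue symbols Dll1-5, circles replicate 1 and triangles replicate 2, the solid line is 0 and the dotted line 2-fold. Nearly all symbols lie right of 0, and in most rows both red symbols lie right of both blue ones.

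In what follows, a pair of values for a line is the log2 ratio of mutant over wild type on its replicate 1 and replicate 2 arrays. Among the 4 origin licensing genes, the median log2 ratio was 1.24 in Dll1-3 and 0.74 in Dll1-5. Cdc6, which loads the MCM ring, was at 1.65 and 1.59 in Dll1-3 and at 0.87 and 0.89 in Dll1-5. Geminin (Gmnn), which holds back Cdt1, was at 1.83 and 1.53 in Dll1-3 and at 1.03 and 0.68 in Dll1-5. A loading factor and an inhibitor of loading were thus both higher in mutant RNA. Cdt1 itself is given below with the genes found under older names. Of the origin recognition subunits, Orc1l (Orc1) averaged 0.86 in Dll1-3 and 0.62 in Dll1-5. Orc1l is dim, and its mean over both lines of 0.74 was 1.56 both with the scanner software's ratios and in the authors' deposited table, where Cdc6 was at 1.64 and Gmnn at 1.30. Orc6l (Orc6) was at 0.36 and 0.45 in Dll1-3 and at 0.48 and 0.57 in Dll1-5 (mean 0.46 ± 0.09, SD, n = 2 lines; limma adjusted p = 0.109). Orc6l was one of 4 genes with both Dll1-5 values above both Dll1-3 values (10.3%, against 28.8% of all genes).

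All 6 subunits of the MCM helicase were above 0 on every array, with a median of 1.42 in Dll1-3 and 0.99 in Dll1-5. Mcm3 had the highest mean of the 39 genes, with log2 ratios of 2.07 and 1.87 in Dll1-3 and 1.62 and 1.53 in Dll1-5 (mean 1.77 ± 0.28, SD, n = 2 lines; limma adjusted p = 0.0750). This rank depends on probe and processing, and the second Mcm3 probe averaged 1.49. With the mean of all passing probes Pold1 (1.77) stood above Mcm3 (1.63). In the deposited table Dbf4 (1.98), Tyms (1.83) and Pold1 (1.82) stood above Mcm3 (1.78). As normalised log2 channel signals, Mcm3 in mutant RNA lay between 13.28 and 13.84, against 11.66 to 11.97 in wild-type RNA. These ranges did not overlap, and the share of all genes with such a gap was not computed. The other 5 subunits formed a narrow band: Mcm6 averaged 1.25, Mcm7 1.21, Mcm2 1.17, Mcm4 1.13 and Mcm5 1.05 over both lines. Of these subunits Mcm5 differed least between lines, at 1.06 in Dll1-3 and 1.03 in Dll1-5.

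Of the 4 genes that act at origin firing, the median was 1.54 in Dll1-3 and 1.23 in Dll1-5. Dbf4 was at 1.79 and 1.83 in Dll1-3 and at 1.45 and 1.74 in Dll1-5 (mean 1.70 ± 0.15, SD, n = 2 lines; limma adjusted p = 0.0745), the highest value of any of the 39 genes in Dll1-5. Mcm10, needed to activate the loaded helicase, was at 1.85 and 2.13 in Dll1-3 and at 1.06 and 1.33 in Dll1-5 (mean 1.59 ± 0.56; adjusted p = 0.0972). Both were at least 2-fold higher in mutant RNA on every array. On the probes used, the kinase subunit Cdc7 and its partner Dbf4 differed in the order of the lines. Cdc7 was at 0.86 and 1.00 in Dll1-3 and at 1.20 and 1.32 in Dll1-5. Other probes did not repeat this contrast. A second Dbf4 probe was at 0.72 and 0.37 in Dll1-3 and at 0.94 and 0.835 in Dll1-5. The remaining Dbf4 probe and the other Cdc7 probes overlapped between the lines. Cdc45l (Cdc45), a co-factor of the moving helicase, was higher in Dll1-3, averaging 1.27 in Dll1-3 and 0.49 in Dll1-5.

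The 8 polymerase and primase genes had medians of 1.21 in Dll1-3 and 0.75 in Dll1-5. Pold1 was at 2.29 and 2.23 in Dll1-3 and at 1.21 and 1.28 in Dll1-5 (mean 1.75 ± 0.71, SD, n = 2 lines; limma adjusted p = 0.108). Both its Dll1-3 values exceeded both its Dll1-5 values, as they did for 24.5% of all genes. Its level over wild type was 4.78-fold in Dll1-3 and 2.38-fold in Dll1-5. Its partner Pold2 averaged 1.44 in Dll1-3 and 0.78 in Dll1-5. Pole, the catalytic subunit of polymerase epsilon, was nearly equal in the lines, at 1.14 in Dll1-3 and 1.15 in Dll1-5, whereas Pole2 averaged 1.29 and 0.71. Of the initiating enzyme, Prim1 had a mean of 1.18 over both lines, Prim2 0.83, Pola1 0.74 and Pola2 0.73. Pola2 was at 0.84 and 0.96 in Dll1-3 and at 0.67 and 0.44 in Dll1-5 (SD 0.24, n = 2 lines; adjusted p = 0.105), and its mean was 1.10 with the scanner software's ratios.

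The sliding clamp and its loader spread most widely of the roles, from a mean of 0.53 (Rfc2) to 1.64 (Rfc5) over both lines. Rfc5, a loader subunit, was at 2.11 and 2.31 in Dll1-3 and at 0.92 and 1.24 in Dll1-5 (mean 1.64 ± 0.80, SD, n = 2 lines; limma adjusted p = 0.130). Rfc4 was at 1.88 and 1.68 in Dll1-3 and at 1.18 and 1.16 in Dll1-5 (mean 1.47 ± 0.43; adjusted p = 0.0855). Rfc2, another subunit of the same loader, was at 0.92 and 1.23 in Dll1-3 but at -0.15 and 0.14 in Dll1-5 (mean 0.53 ± 0.76; adjusted p = 0.441). Rfc2 was therefore at a 2.10-fold level over wild type in Dll1-3, while its mean log2 ratio in Dll1-5 was -0.01, and its second probe gave the same picture, at 1.11 and 1.21 in Dll1-3 and at 0.03 and 0.20 in Dll1-5. Pcna, the clamp itself, had a gap between dye orientations in both lines. Replicate 1 was at 1.90 and replicate 2 at 1.10 in Dll1-3, and at 1.47 and 0.69 in Dll1-5. The lines therefore overlapped across orientations, but within each orientation Dll1-3 was higher.

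Replication protein A, which coats single-stranded DNA, had the lowest median of the roles, 0.93 over both lines. Rpa2 averaged 1.19 in Dll1-3 and 0.74 in Dll1-5, and Rpa3 averaged 0.99 and 0.86. Rpa1, the largest subunit of this trimer, was nearest to 0 of all 39 genes, at 0.11 and 0.03 in Dll1-3 and at 0.31 and 0.22 in Dll1-5 (mean 0.17 ± 0.14, SD, n = 2 lines; limma adjusted p = 0.407). Its normalised log2 signals were 11.14 to 11.43 in mutant RNA and 11.07 to 11.23 in wild-type RNA, and these ranges overlap. Over both lines Rpa2 averaged 0.97 and Rpa3 0.93, so Rpa1 stood below its partners.

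For the joining of lagging-strand pieces, Fen1, the flap endonuclease, averaged 1.60 in Dll1-3 and 1.03 in Dll1-5. The ligase Lig1 was at 0.51 and 0.49 in Dll1-3 and at 0.68 and 0.73 in Dll1-5 (mean 0.60 ± 0.14, SD, n = 2 lines; limma adjusted p = 0.0976). Both its Dll1-5 values exceeded both its Dll1-3 values, as they did for 28.8% of all genes.

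The 5 genes of nucleotide supply had the highest median over both lines of the roles with more than 2 genes, 1.41, with 1.68 in Dll1-3 and 0.99 in Dll1-5. Tyms, which makes thymidylate, was at 2.41 and 2.48 in Dll1-3 and at 0.92 and 1.10 in Dll1-5 (mean 1.73 ± 1.02, SD, n = 2 lines; limma adjusted p = 0.158). Its level over wild type was thus 5.45-fold in Dll1-3 and 2.01-fold in Dll1-5. Tk1, the thymidine salvage kinase, was at 1.90 and 1.77 in Dll1-3 and at 1.01 and 0.97 in Dll1-5 (mean 1.41 ± 0.60; adjusted p = 0.115). Dut, which breaks down dUTP, was more even, at 1.70 and 1.66 in Dll1-3 and at 1.36 and 1.32 in Dll1-5 (mean 1.51 ± 0.24; adjusted p = 0.0750). Both subunits of ribonucleotide reductase matched closely within each line, with Rrm1 at 1.34 and Rrm2 at 1.34 in Dll1-3, and at 0.87 and 0.84 in Dll1-5.

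Ung and Uhrf1 act beside replication, Ung by removing uracil from DNA and Uhrf1 by binding hemimethylated DNA behind the fork. Ung was at 1.98 and 1.85 in Dll1-3 and at 1.29 and 1.31 in Dll1-5 (mean 1.61 ± 0.44, SD, n = 2 lines; limma adjusted p = 0.0813). Uhrf1 averaged 1.58 in Dll1-3 and 1.05 in Dll1-5. Both were at least 2-fold higher in mutant RNA on all 4 arrays.

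The ratios were larger in Dll1-3 than in Dll1-5 for most of the genes. Medians over the 39 were 1.35 in Dll1-3 and 0.93 in Dll1-5, a 2.55-fold and a 1.90-fold level over wild type, and the 4 arrays gave medians of 1.47 and 1.36 for Dll1-3 and 0.94 and 0.90 for Dll1-5. In Dll1-3 29 of the 39 (74.4%) were at least 2-fold higher on both arrays, against 4.43% of all genes, and in Dll1-5 10 (25.6%), against 2.99%. Both Dll1-3 values exceeded both Dll1-5 values for 30 of the 39, against 24.5% of all genes, and the reverse held for Cdc7, Lig1, Orc6l and Rpa1 (10.3%, against 28.8% of all genes). With median centring in place of loess the count of 30 became 3, and the share of all genes became 3.95%. Comparing arrays of the same dye orientation, a comparison chosen after seeing the data, gave 33 of 39 higher in Dll1-3 in both pairs, against 35.8% of all genes, and 36 with median centring, against 37.5%; 4 were higher in Dll1-5 in both pairs, against 41.3% of all genes. With 1 pooled sample a line the difference between lines has no test.

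The difference of Dll1-3 minus Dll1-5 had a median of 0.47, from -0.33 (Cdc7) to 1.44 (Tyms), and all genes had a median of -0.01. Rfc5 (1.13), Rfc2 (1.08), Pold1 (1.01) and Tk1 (0.85) followed Tyms. The distance of the swapped arrays from their line mean had a median of 0.06 for these genes in each line; it is technical error of 1 pooled sample and says nothing of the spread between samples of a line.

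**Figure D3:**
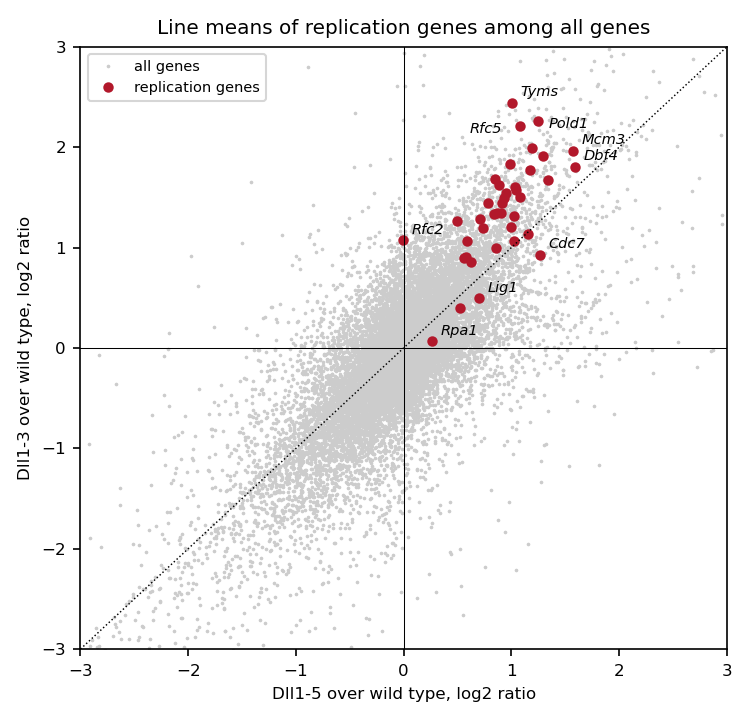
Mean log2 ratio over wild type in Dll1-3 (vertical) against Dll1-5 (horizontal), with the 39 replication genes in red among all genes in grey, and the dotted line marking equal values. Most red points lie above the dotted line, with Tyms highest, while Cdc7, Lig1, Orc6l, Rpa1 and, narrowly, Pole lie below it.

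Because the arrays carry both RNAs, the difference between lines could be read in each channel. In the mutant channel the 39 genes were higher on the Dll1-3 arrays by a median of 0.51 (replicate 1) and 0.52 (replicate 2) on the log2 scale, with 33 above 0 on both (against 39.2% of all genes) and 4 below 0 on both (against 40.5%). In the wild-type channel the median differences were 0.05 and 0.09, with 24 above 0 on both (against 33.1% of all genes) and 7 below 0 on both (against 29.9%). Over all genes each of the 4 medians was within 0.01 of 0. The larger ratios in Dll1-3 thus went with higher signal of mutant RNA. For Tyms, mutant RNA was at 12.28 and 12.32 on the Dll1-3 arrays and at 10.75 and 10.85 on the Dll1-5 arrays, while its wild-type signal was between 9.75 and 9.88 on all 4.

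**Figure D4:**
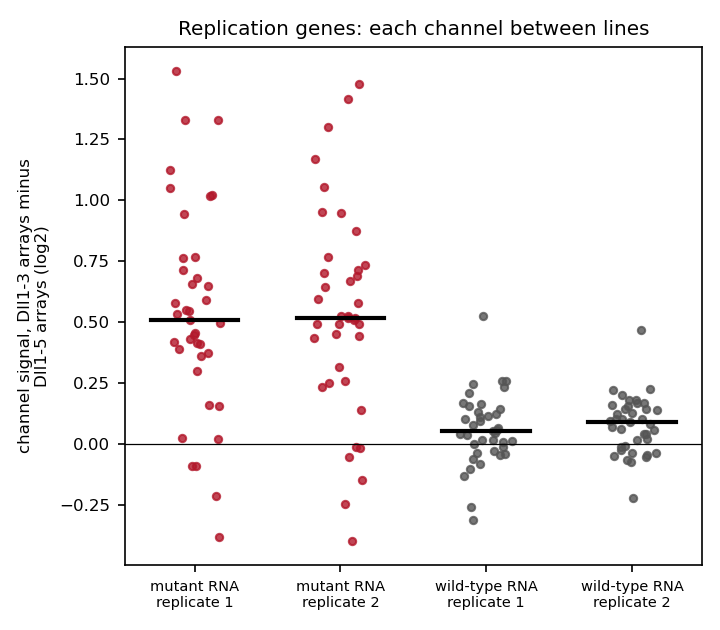
Normalised log2 signal on the Dll1-3 array minus that on the Dll1-5 array of the same replicate number, for each of the 39 genes in the mutant channel (red) and the wild-type channel (grey), with bars at the medians. The medians are 0.51 and 0.52 for mutant RNA and 0.05 and 0.09 for wild-type RNA.

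The 4 genes found under older names lay within the range of the rest. Cdt1 (as Ris2) was at 1.46 and 1.54 in Dll1-3 and at 1.33 and 1.47 in Dll1-5 (mean 1.45 ± 0.07, SD, n = 2 lines; limma adjusted p = 0.0745). Gins1 averaged 1.52 in Dll1-3 and 0.90 in Dll1-5, Gins2 0.92 and 0.50, and Rfc1 1.02 and 0.89, the last with a single Dll1-5 array because the other spot was marked as an outlier.

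For 15 of the 39 genes there was more than 1 probe, and 5 had another passing probe within 0.5 of 0 (log2). Tyms had 3 probes: one other gave a mean of 1.73, like the used probe, and the third, designed to a different transcript record, gave 0.04. For Cdc7 the other probes gave 0.53 and 0.22, for Dbf4 0.72 and 0.44, for Pola2 0.13 and for Mcm4 -0.02. Each of these probes near 0 was dimmer than the one used, and which transcript each probe reads was not tested. Averaging all passing probes gave 0.95 for Dbf4 and 1.17 for Tyms.

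In related lists, genes were counted the same way, against 1.67% of all genes at least 2-fold higher, 2.73% at least 2-fold lower and 24.0% above 0 on all 4 arrays. Of 43 other replication genes, 7 were at least 2-fold higher in mutant RNA on all 4 arrays and 0 lower, and 34 were above 0 on all 4, with a median of 0.66. Timeless, a fork protection factor, was at 1.69 and Mcm8, a helicase used in recombination, at 1.65, while the mitochondrial thymidine kinase Tk2 was at -0.40 and Rnaseh2b, a subunit of RNase H, at -0.27. Of 43 checkpoint and fork repair genes, 4 were 2-fold higher and 0 lower, and 28 were above 0 (median 0.53). Exo1, a resection nuclease, was highest at 2.44, and Fancc, of the Fanconi anaemia pathway, was lowest at -0.41. Among 14 repair and other polymerases 0 were 2-fold in either direction, 5 were above 0 and the median was 0.05, with the lesion bypass polymerases Polh at 1.15 and Poli at 0.86 highest, and Mad2l2 (-0.51) and Rev3l (-0.70), both of polymerase zeta, lowest.

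Of 16 G1/S cyclins and kinases, 2 were 2-fold higher and 0 lower on all 4 arrays, and 12 were above 0, with a median of 0.74. The cyclins Ccnd2 (2.54) and Ccnd1 (1.97) were highest, and the inhibitors Cdkn1c (-0.20) and Cdkn1b (-1.24) lowest. Of 17 E2F and pocket protein genes 0 were 2-fold in either direction and 10 were above 0 (median 0.56). The highest were Lin9 (1.37), of the complex that joins E2F factors at cell cycle promoters, and E2f7 (1.32), a repressor, and the lowest were E2f6 (-0.55), another repressor, and the pocket protein Rbl2 (-0.71). No gene of these lists passed the adjusted threshold.

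Markers of cell types also differed between mutant and wild-type RNA. Over all genes 24.0% were above 0 and 26.1% below 0 on all 4 arrays. At least 2-fold lower on all 4 arrays were 4 neural stem cell, 3 astrocyte, 2 neuron and 5 oligodendrocyte lineage markers, against 2.73% of all genes. Only 1 oligodendrocyte lineage marker was at least 2-fold higher, against 1.67% of all genes. Of 13 neural stem cell markers, 1 was above 0 and 10 below 0 on all 4 arrays (median -0.45), 12 were well above background in mutant RNA on all 4 arrays and 13 in wild-type RNA, and Pax6 was so on 2 of 4 arrays in mutant RNA. Their summed signal was 65103 to 85480 in mutant RNA and 119893 to 134604 in wild-type RNA. The highest ratios were those of Prom1 (0.09) and Msi1 (-0.13), and the lowest those of Pax6 (-2.57) and Hes5, a Notch target (-4.83).

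Of 14 astrocyte markers 2 were above 0 and 9 below 0 (median -0.65), with summed signals of 13665 to 25699 in mutant RNA and 77675 to 104447 in wild-type RNA. Clu (1.38) and Gjb6 (0.28) were highest, and Slc4a4 (-3.41) and Apoe (-3.75) lowest. Of 12 neuron markers 2 were above 0 and 7 below 0 (median -0.59), with sums of 1574 to 1816 in mutant RNA and 3029 to 3329 in wild-type RNA. Snap25 (0.09) and Rbfox3 (0.08) were highest, and Elavl3 (-1.64) and Dcx (-1.74) lowest. Of 13 oligodendrocyte lineage markers 1 was above 0 and 6 below 0 (median -0.52), with sums of 20899 to 38468 in mutant RNA and 46415 to 49466 in wild-type RNA. Cspg4 (2.59) and Mbp (0.07) were highest, and Omg (-3.17) and Gpr17 (-4.08) lowest. Well above background on all 4 arrays were 13 astrocyte, 10 neuron and 11 oligodendrocyte lineage markers in mutant RNA. In wild-type RNA these were 13, 10 and 12. Snap25 and Mbp were each so on 2 arrays in mutant RNA and 3 in wild-type RNA, and Gjb6 on 2 in wild-type RNA.

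Microglia and blood markers had nearly the same sums, 1744 to 1903 in mutant RNA and 1774 to 1957 in wild-type RNA (12 genes, median 0.02). C1qb (0.09) and Csf1r (0.07) were highest, and P2ry12 (-0.32), well above background in mutant RNA on 0 of 4 arrays, and Lyz2 (-0.50) lowest. Endothelial, mural and fibroblast markers summed to 4149 to 4437 in mutant RNA and 6479 to 6687 in wild-type RNA (13 genes, median 0.03). Dcn (0.17) and Col1a1 (0.12) were highest, and Acta2 (-0.82) and Flt1 (-0.85) lowest. Of the microglia and blood markers, 9 were well above background on all 4 arrays in mutant RNA and 10 in wild-type RNA. Of the endothelial, mural and fibroblast markers, 11 and 10 were. Marker sums also differed between the lines in mutant RNA. Astrocyte markers summed to 15314 and 13665 in Dll1-3 and to 25699 and 22817 in Dll1-5, oligodendrocyte lineage markers to 21314 and 20899 in Dll1-3 and to 38468 and 36266 in Dll1-5, and neural stem cell markers to 78641 and 65103 in Dll1-3 and to 82207 and 85480 in Dll1-5. In these 3 lists both sums were lower in the line with the larger replication gene ratios. Endothelial, mural and fibroblast markers went the other way, summing to 4377 and 4437 in Dll1-3 and to 4180 and 4149 in Dll1-5. The sums of neuron markers and of microglia and blood markers overlapped between the lines. A sum follows its brightest genes, and the median log2 ratio of the neural stem cell markers was -0.57 in Dll1-3 and -0.59 in Dll1-5. The marker levels that differed did so alongside the replication genes. Their part in the results, the difference between lines included, was not tested.

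**Figure D5:**
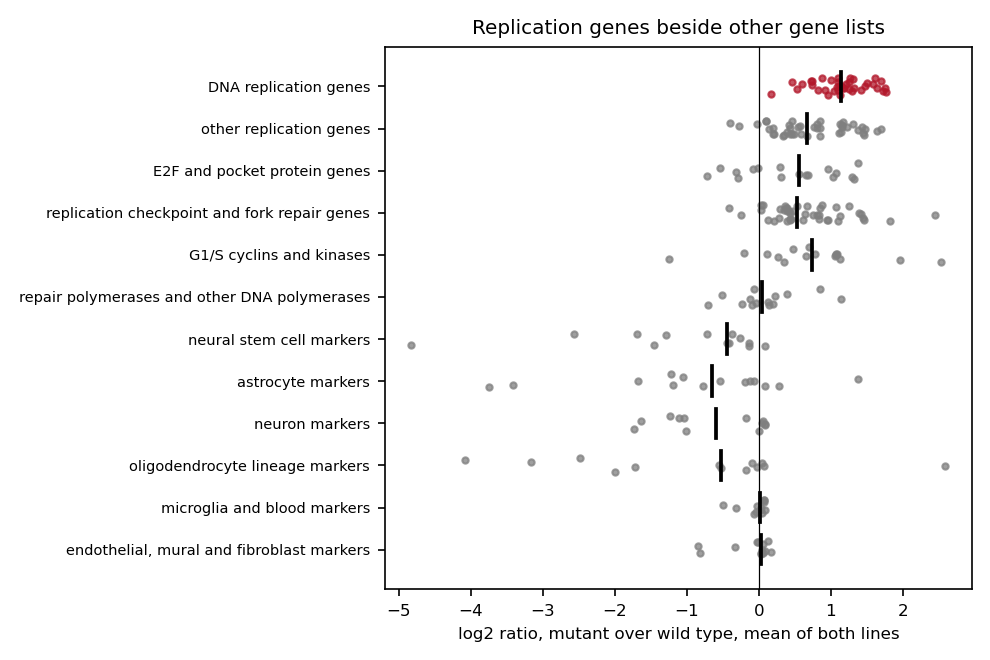
Mean log2 ratio of mutant over wild type over both lines for the 39 replication genes (red) and the genes of 11 other lists (grey), with black bars at the list medians. The replication genes have the highest median, 1.15, followed by the G1/S cyclins and kinases at 0.74, and the neural stem cell, astrocyte, neuron and oligodendrocyte lineage lists have medians below 0.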

How the data were processed

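The authors deposited spot intensity values of 4 two-colour arrays from Agilent's Feature Extraction software (version 8.1.1.1), per the submitters' processing notes. The files also hold log10 ratios of Cy5 over Cy3 from the scanner software, per the file headers. The authors' deposited value table is log10 wild type over mutant by comparison with the scanner ratios, and its centring is unknown; it served as an alternative.

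Mean signals were corrected with normexp (offset 50) and loess (span 0.3) in limma 3.58.1 and R 4.3.3, control spots and outlier spots (27 to 115 per array) being left out, and turned to log2 mutant over wild type. Channel signals were taken after loess and Aquantile. Of 41174 probes, 34447 passed because mutant or wild-type RNA cleared background clearly on each array of at least 1 line. Each gene took its brightest probe with values on all 4 arrays or, where it had none, its brightest passing probe (23239 of the tested genes had values on all 4). Dye-swapped arrays were averaged, and both line means were tested against 0 with lmFit and eBayes (Benjamini-Hochberg over 23351 genes), after a test on simulated data. P-values measure the spread between these 2 samples; whether that includes a spread between wild-type pools depends on whether the lines shared a pool, which is not settled. Precision is limited by the number of lines, each counted as 1 sample.

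Values on all 4 arrays are printed for the 10 genes furthest from 0, the 5 nearest, the 5 with the largest difference between lines and, chosen after their values were seen, Cdc6, Gmnn, Cdc7, Pcna and Cdt1. For other lists, the 2 highest and 2 lowest are named; some genes this rule names are not reported here. Members and lists were chosen with earlier results of these data known. Probe coordinates have no build named and are not printed. Alternatives were other background and dye corrections, filters, probe rules, thresholds and arrays left out.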

Additional observations from a re-analysis of the deposited data

How the results depend on the processing

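The median log2 ratio of the replication genes over both lines (1.15) moved by less than the spread between lines under every alternative run, from 1.11 with the mean of all passing probes to 1.36 with median centring. The number of all genes past the adjusted threshold was 0 in limma, where an unadjusted p under 0.05 took in 2784 higher and 3618 lower genes. It was 989 (4.24%) with an offset of 10 and 329 (1.41%) with the scanner software's ratios, of which 5 and 0 were replication genes. With each array left out it ranged from 0 to 1655. Taking the 4 arrays as separate samples, which counts a dye swap as replication, gave 7825 genes without a block, 6764 with a replicate block and 6694 with line as a random block. Same-numbered arrays share the dye orientation and no stated animal or day; their deviations correlated at 0.701 between lines.

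The count of genes at least 2-fold higher on all 4 arrays (9) was 1 with median centring, 30 at 1.5-fold and 0 at 3-fold. With each array left out it was 9 to 15. The shares of all genes were 1.67% in the main run, 0.516% with median centring, 4.91% at 1.5-fold and 0.383% at 3-fold. With each array left out they were 1.74% to 1.97%. The count higher in Dll1-3 (30, against 24.5% of all genes) was 3 with median centring, against 3.95%. With each array left out it was 30 to 34. Leaving out an array eases both rules, so neither count could fall. For the count higher in Dll1-3, the share of all genes with each array left out was not computed. The median difference between lines (0.47) was 0.52 with the scanner software's ratios, 0.69 with median centring, 0.51 with the deposited value table and 0.49 to 0.53 with each array left out. For these the cause was not tested. Adding the 4 older-named genes gave 10, 32 and a difference of 0.47, an addition chosen after seeing the data. For single genes, 430 of the recomputed values kept direction and side of the threshold, 38 passed it under an alternative, and 0 reversed. Only 2 lines limit every test, and dim probes are compressed by the offset.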
